A study of Rattus norvegicus with 14 samples.

Results

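The citric acid cycle and the first part of the respiratory chain were followed here through a list of 38 rat genes, given by name and not chosen by a value of these arrays. The list holds 11 enzymes of the cycle, 4 subunits of complex II, 17 of complex I, and 6 genes of complex III and cytochrome c. Of the 38 genes, 35 were measured by a probe set that carries their symbol alone, through 43 probe sets in all, out of 14217 named genes and 31042 probe sets tested. Ndufa10, Uqcrb and Cycs were found only on probe sets shared with near-identical copies and stand outside the 35.

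The study compared the left ventricle of male Wistar rats 16 weeks after diabetes was induced with the same tissue of control rats. The 7 control animals received saline through the tail vein under halothane, and the 7 diabetic animals received 60 mg/kg streptozotocin, a drug toxic to the beta cells that make insulin. All hearts were perfused with buffer before the ventricle was dissected, and each animal gave 1 Affymetrix Rat Genome 230 2.0 array. In the diabetic group 1 label, the description, speaks of saline, against the title, source and protocol of the same samples, and the group was taken from the title. Either of 2 kits was used for RNA, with no record of the kit per animal in the labels. Animal ages and each animal's glucose were not used here. A low level in such a tissue sample has more than 1 reading, since fewer cells of a type and less RNA per cell cannot be told apart.

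The cycle oxidises acetyl groups in the mitochondrial matrix and passes the electrons to NADH and, through succinate dehydrogenase, to ubiquinone. Complex I takes electrons from NADH, complex II is succinate dehydrogenase itself, and complex III hands electrons from ubiquinol to cytochrome c. Heart muscle is packed with mitochondria and draws nearly all its ATP from this chain, and in insulin-deficient diabetes it burns mostly fatty acids.

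The RefSeq promoter table of the rat assembly GRCr8 held a window for 31 of the 35 measured genes, reaching from 250 bases before the start of the gene to 50 after it. Cyc1, Idh3a, Ndufa8 and Ndufb9 were missing from it. The 150 bases just before the start are printed for the gene of each enzyme group that has a window and the smallest p between diabetic and control hearts, so that each group is shown by 1 gene, although none of these genes passed the test. They read 5′ to 3′ on the gene's own strand, and capitals mark a match to a searched motif.
Idh3b (chr3:137939991-137940140, minus strand): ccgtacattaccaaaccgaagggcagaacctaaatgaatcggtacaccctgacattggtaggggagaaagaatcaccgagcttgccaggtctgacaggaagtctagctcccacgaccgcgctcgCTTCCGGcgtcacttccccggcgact
Sdhd (chr8:59850642-59850791, minus strand): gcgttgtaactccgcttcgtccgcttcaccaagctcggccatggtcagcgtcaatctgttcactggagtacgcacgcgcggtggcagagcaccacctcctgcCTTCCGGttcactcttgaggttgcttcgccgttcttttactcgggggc
Ndufs3 (chr3:97339655-97339804, minus strand): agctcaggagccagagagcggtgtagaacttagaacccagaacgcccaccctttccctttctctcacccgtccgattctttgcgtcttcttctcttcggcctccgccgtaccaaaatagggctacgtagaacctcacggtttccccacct
Uqcrc1 (chr8:118468073-118468222, plus strand): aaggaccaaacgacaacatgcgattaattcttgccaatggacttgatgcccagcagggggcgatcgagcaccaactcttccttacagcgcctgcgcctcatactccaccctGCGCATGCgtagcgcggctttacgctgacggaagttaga
The capitals in Idh3b and Sdhd are the ETS core CCGGAAG, read here on its other strand as CTTCCGG. It lies at the heart of the sites that GABP, an ETS factor known for nuclear genes of the respiratory chain, binds. The core lay in 10 of the 31 windows (32.3%), against 8.75% of all 33469 promoter windows and 14.3% of the 13243 windows of genes named on the array. The 10 genes were Dlst, Idh3b, Idh3g, Mdh2, Ndufa1, Ndufa2, Ndufs1, Sdhb, Sdhd and Uqcrc2. Of these genes, Ndufa1 had a higher diabetic mean in the comparison below and the others a lower one. Among all 35 measured genes 32 had a lower one, and a link between the core and the change was not tested.

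The full palindromic core of NRF-1, another factor known for such genes, lay in 0 of the 31 windows, in 0.852% of all windows and in 1.53% of those of named genes. Its shorter form GCATGCGC, which the full core contains, lay in 2 of 31 (6.45%, Sdhb and Uqcrc1), against 2.47% of all windows and 4.18% of those of genes named on the array. In Uqcrc1 it is the stretch in capitals, on the other strand. The core of the oestrogen-related receptors, TCAAGGTCA, lay in 1 window (3.23%, Sdhd, outside the printed bases), against 0.433% of all and 0.272% of those of named genes. Ndufs3 held none of the searched letters in its window, which says nothing about the factors that act on it. All motifs were searched on both strands, and a match is a description of the letters.

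Array values are given as log2 of probe set intensity after scaling and quantile normalisation, and a change is the diabetic mean minus the control mean on that scale. A level was not compared between genes, since each probe set has its own response. The median deposited signal differed between the 14 arrays, from 14.8 to 85.3. Apart from diabetes, the arrays fell into 3 sets by their control probe sets (added spike-in RNAs and beta-actin): set A held controls 1 and 2 and diabetic animals 6 and 7, set B controls 4 and 7 and diabetic animals 2 and 3, and set C the other 6. The ratio of 3′ to 5′ beta-actin signal on the log2 scale, which grows as RNA or its copy is shorter, ran from 1.41 to 1.71 in set A, 0.67 to 0.84 in set B and 0.67 to 1.47 in set C. It was 1.03 ± 0.40 in controls and 1.09 ± 0.39 in diabetic animals (SD, n = 7 each, two-sided exact permutation p = 0.818). What the sets stand for is not given in the labels.

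The tissue carried its defining markers: all 9 ventricular cardiomyocyte markers were measured and 0 were called in either direction by the main test, with a median change of -0.03. A fit given further below, with the array set as a block and a prior that follows signal, called 2 of the 9 lower and 0 higher. They were Myh6 and Mybpc3 (adjusted p of limma 0.000193 and 0.0219), where 2.19% of all probe sets were called lower. Myh6, the alpha myosin heavy chain, had a change of -0.23 ± 0.09, with all 7 diabetic hearts below every control (adjusted p of limma 0.363, and 0.0142 when the prior for the variance followed signal). Its part in the values below was not tested. The 4 atrial markers had higher diabetic means and a median change of 1.03, with 0 called. Their summed level ran from 13.46 to 15.56 in controls and from 14.51 to 15.57 in diabetic hearts, so atrial signal differed widely between single arrays, and the part of that in the values below was not tested either. The 5 macrophage markers had a median change of 0.36 and the 6 fibroblast markers of 0, with 0 called in either list.

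The transcripts of the cycle and of complexes I to III were nearly level between control and diabetic hearts, with a small downward displacement in which no single gene passed the test. When arrays were not scaled, the median change turned upward to 0.05, where that of all named genes was 0.09. With limma and Benjamini-Hochberg adjustment over all probe sets, 0 of 35 genes were called lower and 0 higher at an adjusted p under 0.05, where 0.522% of all probe sets were called lower and 0.619% higher. The lowest adjusted p of limma was 0.253, for Ndufs3. At an unadjusted p under 0.05, 6 genes had lower diabetic means and 0 higher ones, where 4.88% of all probe sets were lower and 4.74% higher by that rule. The 6 were Idh3b, Sucla2, Ndufa8, Ndufs3, Ndufs4 and Ndufv2. For 32 of 35 genes the 95% interval of the diabetic over control ratio lay within 1.5-fold either way, the exceptions being the complex I subunits Ndufa2, Ndufa5 and Ndufb8.

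The displacement was shared across the list. The diabetic mean lay below the control mean for 32 of 35 genes (91.4%), against 50.4% of all named genes and 50.6% of all probe sets, and the exceptions were Cs, Suclg1 and Ndufa1. That count was 25 with cardiomyocyte markers subtracted and 12 with no scaling between arrays, so the direction against 0 rests on the scaling. The median of all named genes also moved in these settings, to 0.06 and 0.09, and the share of them lower there is not given here. The median of the 35 genes lay below that of all named genes under every scaling tried. The median change over the 35 genes was -0.10, with a range from -0.34 to 0.07, while the median of all named genes was 0, and with no scaling it was 0.05 against 0.09. By enzyme group the median was -0.19 for complex I, -0.10 for the cycle, -0.09 for complex II and -0.09 for complex III, without cytochrome c. The difference between these medians was not tested, and the genes come from the same 14 arrays, so they are not independent counts.

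Taken array by array, the median deviation of the 35 genes from their control means lay between -0.02 and 0.03 in the 7 controls and between -0.15 and -0.04 in the 7 diabetic hearts. These ranges were apart, but they overlapped within each enzyme group: for complex I they ran from -0.08 to 0.06 in controls and from -0.25 to 0.01 in diabetic hearts, and for the cycle from -0.03 to 0.03 and from -0.12 to -0.01. The ranges over all 35 genes also overlapped under each of the other 6 scalings tried, for example from -0.06 to 0.05 and from -0.12 to -0.01 with cyclic loess and from -0.17 to 0.15 and from -0.30 to 0.15 with trimmed-mean scaling alone. The genes were also among the steadiest and brightest on the array. Their median within-group SD was 0.11, against 0.37 over all probe sets of any signal, and 33 of 35 lay below that. Their SD was not compared with that of probe sets of like signal. By mean signal 34 of 35 lay at or above the 95th percentile of probe sets and 29 at or above the 99th.

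**Figure D1:**
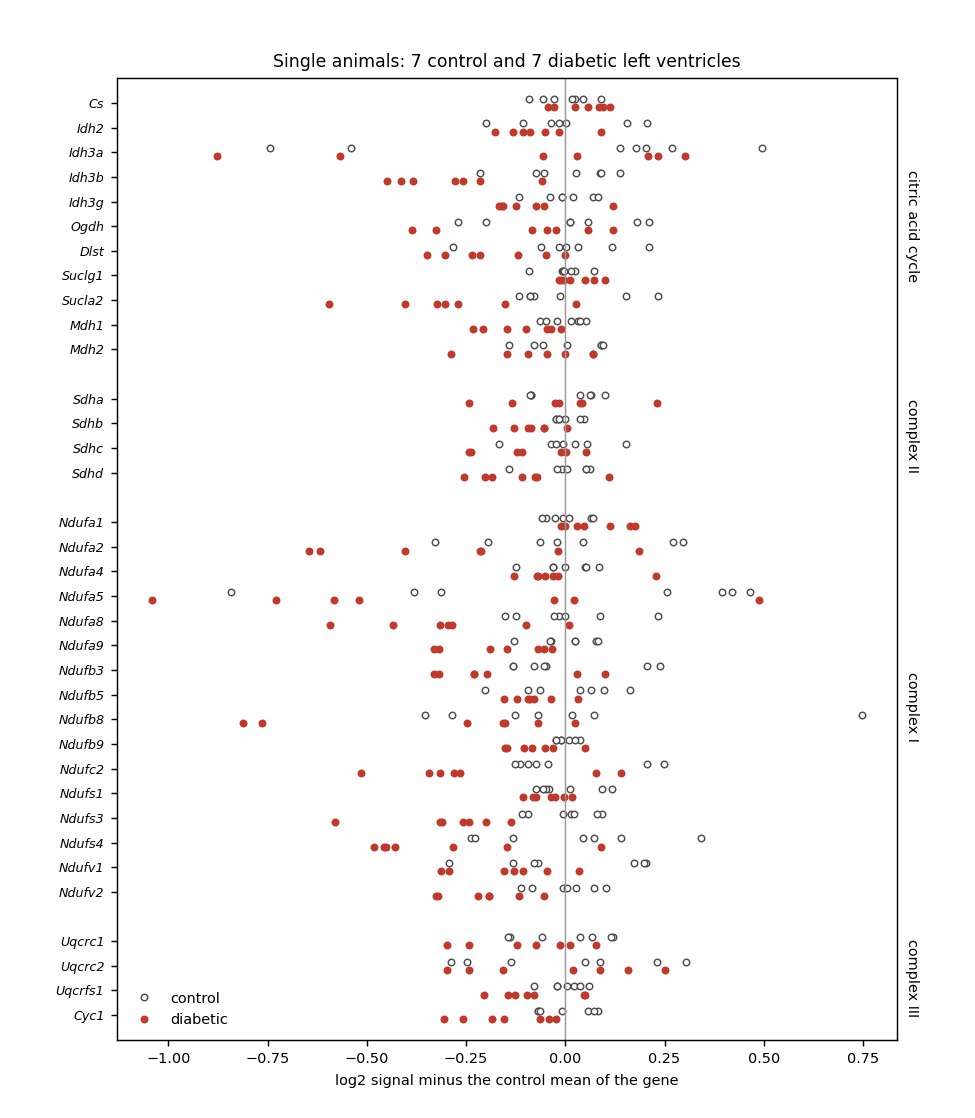
Value of each of the 35 genes (rows, by enzyme group) in each animal, as log2 signal minus the mean of the 7 controls for that gene, with open points for control and filled points for diabetic hearts. With quantile normalisation the filled points lie further left in most rows (not so with no scaling), the groups are fully apart for Ndufs3 alone, and Idh3a and Ndufa5 scatter widely in both groups. The lowest single value is -1.04, in Ndufa5, and the highest 0.75, in Ndufb8.

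Among the enzymes of the cycle, the entry and the start of the path were level. Cs, citrate synthase, which joins acetyl-CoA to oxaloacetate, had values of 14.21, 14.32 and 14.39 (lowest, median and highest) in controls and 14.26, 14.36 and 14.42 in diabetic hearts. The groups overlapped almost fully, with a change of 0.04 ± 0.09 (SE) and a ratio of 1.03 (95% interval 0.907 to 1.17). The other 3 probe sets of Cs gave 0.11, -0.05 and -0.34, the last on a dim probe set. Idh2, the NADP-linked mitochondrial isocitrate dehydrogenase, ran from 14.90 to 15.31 in controls and from 14.92 to 15.19 in diabetic hearts, with a change of -0.07 ± 0.10.

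The NAD-linked isocitrate dehydrogenase, which sets much of the pace of the cycle, is built from the products of Idh3a, Idh3b and Idh3g, and these differed in behaviour. Idh3b, a regulatory subunit, had values of 14.01, 14.25 and 14.36 in controls and 13.78, 13.95 and 14.16 in diabetic hearts. Of the 7 diabetic hearts, 5 lay below every control, and 5 controls lay above every diabetic heart. The change was -0.29 ± 0.10, a ratio of 0.816 (0.703 to 0.947), with a limma adjusted p of 0.279. It was -0.28, -0.35 and -0.27 within array sets A, B and C.

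Idh3g, the other regulatory subunit, had a change of -0.09 ± 0.09, and 4 of 7 diabetic hearts lay below every control while 1 lay above them all. Idh3a, the catalytic subunit, spread far more than its partners, from 11.71 to 12.95 in controls and from 11.57 to 12.75 in diabetic hearts. Its spread ran along the array sets and not along diabetes: its means were 11.77 in set A, 12.54 in set B and 12.73 in set C. The limma F test between sets gave an adjusted p of 0.000749 for Idh3a, while the diabetic minus control change was -0.10 ± 0.23.

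The 2-oxoglutarate dehydrogenase complex converts 2-oxoglutarate to succinyl-CoA. Its first component, Ogdh, had a change of -0.10 ± 0.12, and its succinyltransferase, Dlst, one of -0.18 ± 0.11. Dlst ran from 12.93 to 13.42 in controls and from 12.87 to 13.21 in diabetic hearts, and its change within the 3 array sets was -0.19, -0.19 and -0.18.

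Succinyl-CoA synthetase, the step that makes GTP or ATP directly, is built from a shared alpha subunit and 1 of 2 beta subunits. Sucla2, the ATP-forming beta subunit, had values of 13.83, 13.87 and 14.18 in controls and 13.35, 13.64 and 13.97 in diabetic hearts. All but 1 of the diabetic hearts lay below every control. The change was -0.29 ± 0.11, a ratio of 0.819 (0.693 to 0.967), with a limma adjusted p of 0.378. A dim second probe set of Sucla2 gave -0.05. Suclg1, the alpha subunit, was level at 0.03 ± 0.08, with 13.48 to 13.64 in controls and 13.55 to 13.67 in diabetic hearts. Suclg2, the other beta subunit, stands outside the list and had a change of 0.12 ± 0.10 (adjusted p 0.778 with limma). Malate dehydrogenase, the last step of the cycle, had a change of -0.06 ± 0.10 for the mitochondrial Mdh2 and -0.11 ± 0.09 for Mdh1, the cytosolic form that works in the malate-aspartate shuttle.

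Complex II was the tightest group. Sdhd, a membrane anchor, had values of 14.14, 14.29 and 14.35 in controls and 14.03, 14.18 and 14.40 in diabetic hearts, with a change of -0.11 ± 0.09 and a limma adjusted p of 0.795. Its diabetic hearts spanned the whole control range, 3 lying below every control and 1 above. Sdhb, the iron-sulphur subunit, had a narrow control range of 14.44, 14.45 and 14.51 and diabetic values of 14.28, 14.38 and 14.47. Here 6 of 7 diabetic hearts lay below every control, yet the change was only -0.09 ± 0.08, with a limma adjusted p of 0.840. Sdha, the flavoprotein that oxidises succinate, and Sdhc, the other anchor, had changes of -0.02 ± 0.10 and -0.10 ± 0.10. The 95% intervals of all 4 subunits lay within 1.5-fold.

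Complex I, with 16 of the 35 genes, held 4 of the 6 with an unadjusted p under 0.05. The cycle, with 11 genes, held the other 2. By that rule 4.88% of all probe sets were lower. Complex I also held the gene whose groups were apart. Ndufs3, a core subunit of the arm that carries electrons from NADH towards ubiquinone, had values of 13.66, 13.79 and 13.87 in controls and 13.19, 13.51 and 13.63 in diabetic hearts. Every diabetic heart lay below every control. It was the only 1 of 35 genes whose groups did not overlap, where 0.564% of all probe sets did not overlap with the diabetic hearts lower and 0.635% with them higher. With array medians, 75th percentiles, cyclic loess, cardiomyocyte markers or no scaling in place of quantile normalisation the count was 0, without diabetic replicate 1 it was 2 and without diabetic replicate 6 it was 4, where 0.651% and 0.757% of all probe sets were apart in that direction. Without the 3 dimmest arrays it was 3, where 1.12% were. The gap for Ndufs3 was small, from 13.634 in the highest diabetic heart to 13.663 in the lowest control. The change was -0.29 ± 0.10, a ratio of 0.816 (0.707 to 0.943), and it was -0.22, -0.29 and -0.34 within array sets A, B and C.

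No core subunit of that arm passed, Ndufs3 included (limma adjusted p 0.253), and differences between subunits were not tested. Ndufv2, which holds an iron-sulphur cluster next to the NADH site, ran from 14.09 to 14.31 in controls and from 13.88 to 14.15 in diabetic hearts, with a change of -0.20 ± 0.09 and a limma adjusted p of 0.487. Ndufv1, which binds NADH and the flavin, had a change of -0.14 ± 0.11. Ndufs1, the largest subunit and a carrier of further clusters, was at -0.04 ± 0.09, with 14.05 to 14.24 in controls and 14.02 to 14.14 in diabetic hearts.

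The accessory subunits surround and stabilise this core. Ndufa8, an accessory subunit on the intermembrane space side, had values of 13.57, 13.71 and 13.96 in controls and 13.13, 13.43 and 13.73 in diabetic hearts. Of the diabetic hearts 5 lay below every control, and the change was -0.29 ± 0.11 with a limma adjusted p of 0.378. Ndufs4, an accessory subunit needed for a complete complex, had values of 10.85, 11.13 and 11.43 in controls and 10.61, 10.66 and 11.18 in diabetic hearts. Its change of -0.31 ± 0.13 (adjusted p 0.425 with limma) was uneven between array sets, at -0.12, -0.66 and -0.20.

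Within complex I the widest intervals belonged to 3 accessory subunits whose arrays scattered in both groups. Ndufa5 ran from 11.75 to 13.05 in controls and from 11.55 to 13.08 in diabetic hearts, so its change of -0.34 ± 0.25 was the largest of the list and had the widest interval. Ndufb8 had a change of -0.31 ± 0.18 and held 1 control at 12.54, far above the control median of 11.72. Ndufa2 had a change of -0.28 ± 0.15 and means of 13.67, 13.38 and 13.11 in array sets A, B and C.

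The remaining accessory subunits lay closer to 0. Ndufc2, Ndufb3 and Ndufa9 had changes of -0.21 ± 0.12, -0.17 ± 0.11 and -0.16 ± 0.09, with 5, 5 and 4 of 7 diabetic hearts below every control. Ndufb5 was at -0.08 ± 0.09 and Ndufb9 at -0.07 ± 0.09. The controls of Ndufb9 were packed between 14.83 and 14.89, and 6 diabetic hearts lay below them and 1 above. Ndufa4, first described in complex I and now often placed with cytochrome c oxidase, was at -0.02 ± 0.09. Ndufa1, a small subunit needed for assembly, was the only complex I gene with a higher diabetic mean, at 0.07 ± 0.09, and its change was 0.07, 0.07 and 0.08 within the 3 array sets.

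In complex III, Cyc1, the cytochrome c1 that passes electrons to cytochrome c, had values of 14.21, 14.27 and 14.36 in controls and 13.97, 14.12 and 14.25 in diabetic hearts. The groups overlapped, with 4 diabetic hearts below every control, and the change was -0.15 ± 0.09, a ratio of 0.903 (0.788 to 1.03), with a limma adjusted p of 0.681. Uqcrc1, a core structural subunit, had values of 14.23, 14.41 and 14.49 in controls and 14.08, 14.30 and 14.45 in diabetic hearts, with a change of -0.09 ± 0.10 and a limma adjusted p of 0.852. Its range in diabetic hearts covered most of the control range. Uqcrfs1, the Rieske iron-sulphur protein, was at -0.08 ± 0.09. Uqcrc2, the second core subunit, was at -0.03 ± 0.13 and followed the array sets, with means of 14.96 in A, 14.78 in B and 14.49 in C.

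**Figure D2:**
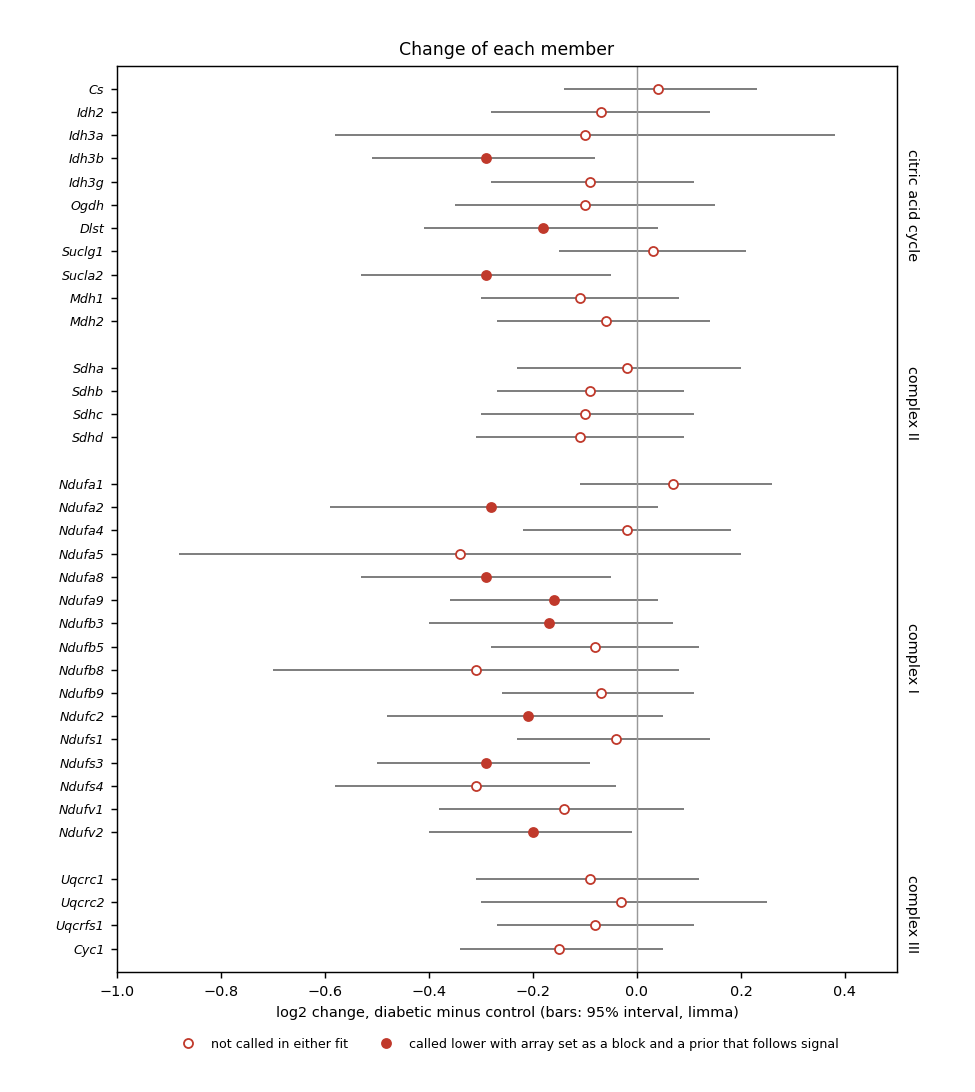
Change of each of the 35 genes (diabetic minus control, log2, points) with its 95% interval from limma (bars), by enzyme group. With quantile normalisation points lie below 0 for all genes but Cs, Suclg1 and Ndufa1 (for 12 genes with no scaling), and filled points mark the 10 genes called lower when the array set was a block and the variance prior followed signal.

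How many genes passed depended on how the spread between arrays was modelled. With limma's variance prior allowed to follow signal and made robust, 2 genes were called lower, Idh3b (adjusted p 0.0283) and Ndufs3 (0.0253), where 0.838% of all probe sets were called lower and 0.912% higher. Under every other scaling of the arrays tried with that prior, 0 of the 35 were called. There the share of all probe sets called ran from 0.129% with no scaling to 1.80% with cyclic loess. With the array set as a block and the ordinary prior, 0 were called, the lowest adjusted p of limma being 0.0893, where 1.03% of probe sets were called lower and 1.05% higher.

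With the array set as a block and the prior that follows signal together, a combination chosen after seeing the data, 10 genes were called lower and 0 higher, where 2.19% of all probe sets were called lower and 2.09% higher. They were Idh3b, Dlst and Sucla2 of the cycle and Ndufa2, Ndufa8, Ndufa9, Ndufb3, Ndufc2, Ndufs3 and Ndufv2 of complex I. None was in complex II or complex III. The adjusted p of limma in that fit ran from 0.000539 for Idh3b and Sucla2 to 0.0409 for Dlst.

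The scaling of the arrays bore on those calls. With trimmed-mean scaling alone, 75th percentiles or cyclic loess in place of quantile normalisation, the calls in that combined fit were 5 each time, namely Idh3b, Sucla2, Ndufa2, Ndufa8 and Ndufs3, where 1.80%, 1.97% and 2.06% of all probe sets were called lower. With array medians subtracted, with cardiomyocyte markers subtracted or with no scaling, 0 of the 35 were called, where 0.986%, 0.680% and 0.0580% of all probe sets were called lower. The median change over the 35 genes minus that of all named genes was -0.10 with quantile normalisation, trimmed-mean scaling, array medians, 75th percentiles or cardiomyocyte markers. It was -0.08 with cyclic loess and -0.04 with no scaling, where the 35 genes had a median change of 0.05 and all named genes 0.09.

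**Figure D3:**
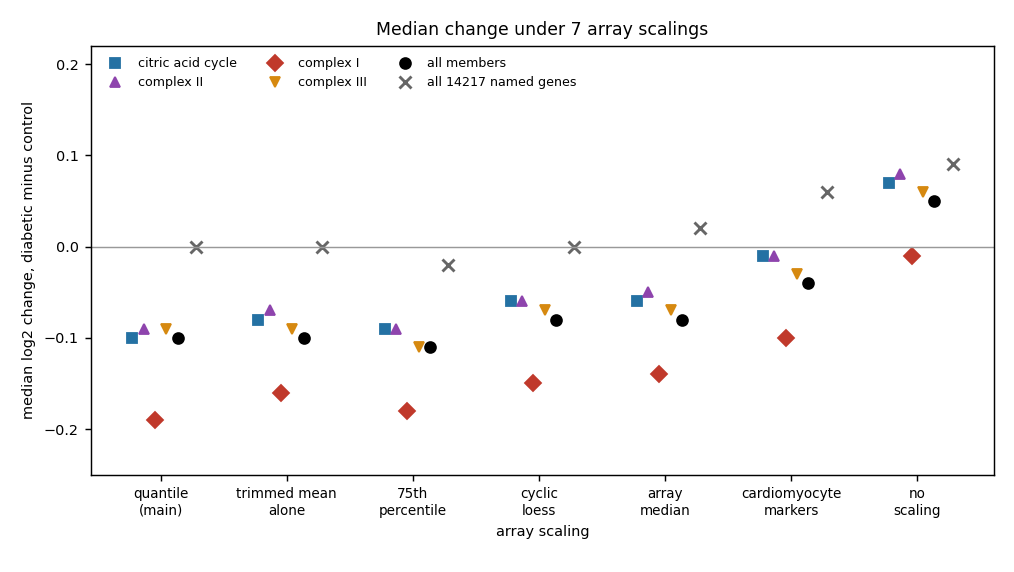
Median change (diabetic minus control, log2) of all 35 genes, of each enzyme group and of all named genes under each scaling of the arrays. The 35 genes lie below all named genes under every scaling shown, by 0.10 with quantile normalisation and by 0.04 with no scaling, where their own median is above 0.

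The array sets carried differences of their own in these genes. Between the 3 sets, 4 of 35 genes (11.4%) were called by the limma F test, where 8.71% of all probe sets were. Idh3a was lower in set A than in sets B and C, with differences of -0.77 and -0.96. Uqcrc2, Ndufa2 and Ndufc2 were higher in set A than in set C, by 0.46, 0.56 and 0.41 (adjusted p of limma 0.0138, 0.0122 and 0.0276). These differences were as large as or larger than any difference between diabetic and control hearts in the list.

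Each set held as many control as diabetic animals, so the comparison could be made inside each. The median change over the 35 genes was -0.10 in set A, -0.09 in set B and -0.15 in set C, and 30, 27 and 31 genes had lower diabetic means there. In all 3 sets 24 genes were lower and 1, Ndufa1, was higher. Without set A, which had the highest median actin ratio, 5 controls and 5 diabetic hearts remained, and the groups did not overlap for 7 genes, all lower in diabetic hearts, where 1.75% of all probe sets did so and 1.69% were apart with diabetic hearts higher. The 7 were Sucla2, Sdhb, Ndufa8, Ndufb3, Ndufb9, Ndufc2 and Ndufs3. Removing set A was chosen after seeing the data.

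**Figure D4:**
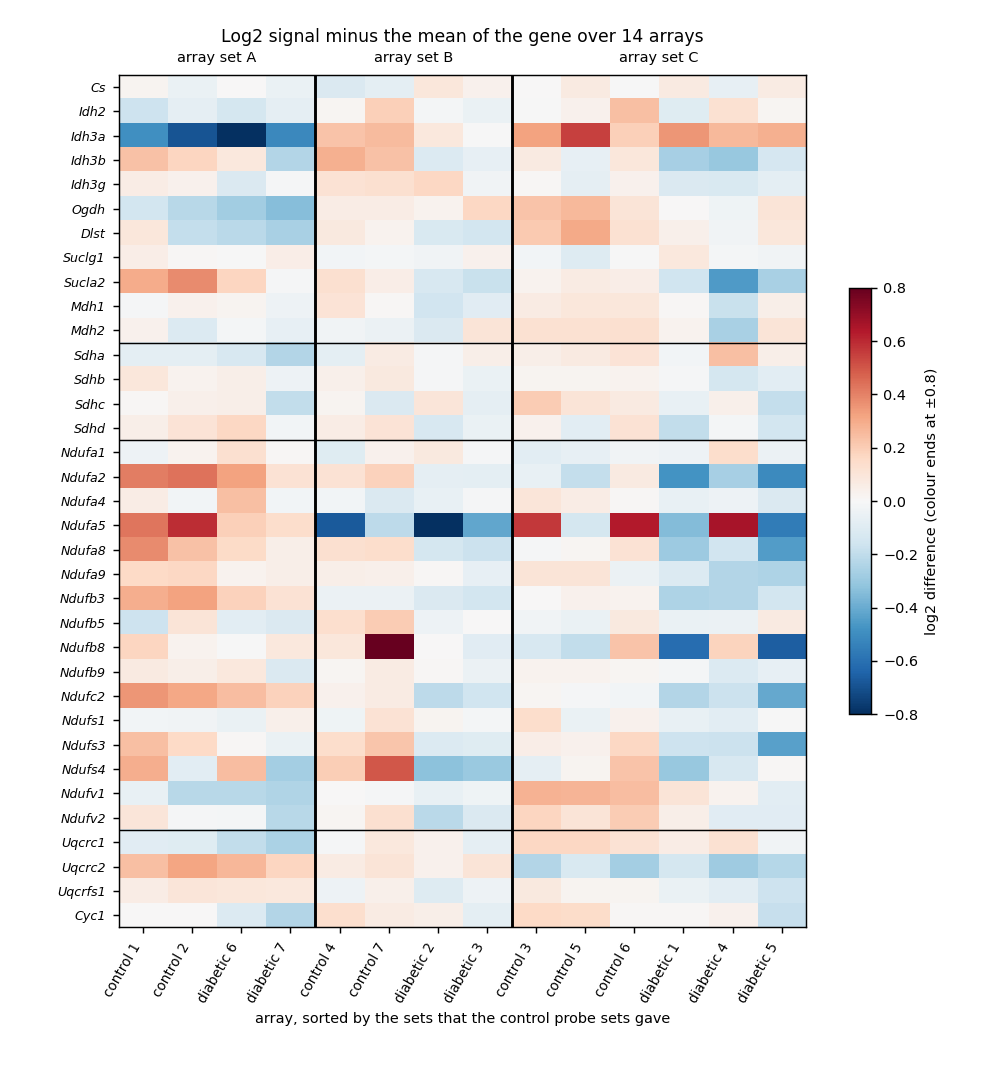
Log2 signal of each of the 35 genes (rows) minus its mean over the 14 arrays (columns, sorted by array set), with red for higher, blue for lower and the colour ending at 0.8 either way. Idh3a is blue in all 4 arrays of set A and not in sets B and C, while the diabetic columns of Ndufs3 are bluer than the control columns inside each set.

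The rest of the pathway was read from lists of genes outside the 38. Of 18 further complex I subunits measured, 0 passed in either direction and all 18 had a lower diabetic mean, with changes from -0.34 to 0 and a median of -0.19, the value found for the 16 complex I genes above. Ndufb7 was apart between groups there, at -0.25 ± 0.09, and Ndufa6 had the smallest p, with a change of -0.34 ± 0.12 and a limma adjusted p of 0.300. Of 4 further complex III subunits 0 passed, with a median change of -0.16. In the combined fit with the array set and the prior that follows signal, 10 of the 18 complex I subunits and 2 of the 4 complex III subunits were called lower and 0 higher, where 2.19% of all probe sets were called lower and 2.09% higher. In the same fit 3 of the 13 other cycle genes were lower and 1 higher, 5 of the 11 coenzyme Q genes were lower and 0 higher, and 1 of the 14 ATP synthase genes was higher and 0 lower. The assembly factors and the genes of mitochondrial DNA expression had 0 in either direction. Of the 9 ventricular cardiomyocyte markers, 2 were lower in that fit and 0 higher.

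ATP synthase, which spends the proton gradient that the chain builds, had a median change of -0.03 over 14 measured genes, with 0 passing. Its inhibitor Atp5if1 had the smallest p, with a change of 0.34 ± 0.17 and a limma adjusted p of 0.545. Of 20 assembly factors of complexes I to III 0 passed, with a median change of -0.06. Of 11 genes listed for mitochondrial DNA expression 0 passed, with a median change of 0.05. The list includes Nrf1 and Gabpa, of factors known for nuclear genes. Tfam, which packs mitochondrial DNA and helps transcribe it, was at 0.20 ± 0.10 (adjusted p 0.510 with limma).

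The genes that passed lay beside the cycle and the chain. Among 13 other genes of the cycle and its refilling reactions, 1 was called lower and 0 higher, where 0.522% and 0.619% of all probe sets were. Pc, pyruvate carboxylase, which refills oxaloacetate, had values of 8.23, 8.69 and 9.42 in controls and 7.33, 7.79 and 8.26 in diabetic hearts. The groups overlapped only at their edges. Pc fell by 0.88 ± 0.18 on the log2 scale, a ratio of 0.543 (0.414 to 0.711), with a limma adjusted p of 0.0237. Its probe set lay at percentile 63.1 of signal, where the added 50 draws a ratio towards 1. Idh1, the cytosolic NADP-linked isocitrate dehydrogenase, lay on the other side without passing, with a change of 0.46 ± 0.11 and 6 of 7 diabetic hearts above every control. Its limma adjusted p was 0.0762, and it was 0.0156 with the array set as a block, 0.00737 with the prior that follows signal and 9.14e-05 with both.

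Among 11 genes of coenzyme Q, the carrier between complexes I, II and III, 1 was called lower and 0 higher. Coq10a, whose product binds coenzyme Q and is needed for its function in the chain, had values of 11.70, 11.86 and 11.99 in controls and 10.90, 11.14 and 11.23 in diabetic hearts. Every diabetic heart lay well below every control. Coq10a fell by 0.75 ± 0.10 on the log2 scale, a ratio of 0.593 (0.515 to 0.682), with a limma adjusted p of 0.000349, and its change was -0.79, -0.78 and -0.71 within array sets A, B and C. No mean change among the 35 genes of the cycle and complexes I to III was as large.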

How the data were processed

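Left ventricle RNA was measured on 1 array per animal in 7 control and 7 diabetic rats, so the replicates are animals. The SE and p of the main limma fit blend each probe set's spread between animals with 1 prior spread common to all probe sets. For steady, bright genes this prior widens the SE. Sdhb, with a within-group SD of 0.05, had an SE of 0.08, and of 0.05 when the prior followed signal. The deposited table gives 1 linear intensity per probe set and array, for 31099 probe sets. The submitters' processing notes name MAS5, RMA, affy and limma. Which of them made the intensity values, and in which version, was not given in sources used here. Each array was scaled to a mean of 500 after trimming 2% at both ends, 50 was added to every value, and the log2 values were quantile normalised. Affymetrix control probe sets (57) were kept out of the tests. Diabetic and control arrays were compared by limma 3.58.1 (R version 4.3.3, lmFit and eBayes with group as the sole term, two-sided), and p was adjusted by Benjamini-Hochberg across the 31042 tested probe sets, with calls at 0.05. The number of arrays limits the precision.

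The platform's annotation gave 1 symbol for 20826 probe sets, several for 436 and none for 9780. A gene was represented by its brightest probe set with 1 symbol. Any listed gene could be named. Full values went to called genes, to genes whose groups did not overlap and to the 2 of each enzyme group with the smallest p, and from the other lists called genes and that with the smallest p were named. Idh1, Suclg2, Ndufs4, Ndufv2, Ndufb7 and other genes given in more detail were chosen after their values were seen. The genes and lists were chosen with earlier results of these data known. Array sets were drawn at the widest gap in the spike-in and actin signals. Same-numbered arrays did not deviate together (correlations from -0.16 to 0.09 over 7 pairs), so numbers were not taken as pairs. Arrays correlated by 0.919 to 0.981, and none repeats another. The steps were tested on simulated data.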

Additional observations from a re-analysis of the deposited data

Results flagged for a closer look

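In groups of 7 arrays, the gap between the most extreme array and the next was set against the range of the group, for each of the 35 genes and for the beta-actin ratio. Of the 72 groups examined, 5 (6.94%) had such an array apart from the rest, where chance flags about 1 in 20. The highest diabetic value of Idh3g was 14.09, in replicate 2, with the next at 13.91. The lowest control value of Sdhd was 14.14, in replicate 5, with the next at 14.27. The highest diabetic value of Ndufa4 was 14.75, in replicate 6, with the next at 14.50. The highest control value of Ndufb8 was 12.54, in replicate 7, with the next at 11.86. The lowest diabetic value of Ndufs3 was 13.19, in replicate 5, with the next at 13.46. The 5 flags fell on 5 different arrays.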

How the results depend on the processing

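The lack of calls held under offset 16, every scaling, array weights, the array set as a block, the actin covariate, the dim filter, the other probe set rules, each array left out, a refit without set A, the 3 dimmest arrays left out and a threshold of 0.1. One exception was offset 200, with 1 gene called lower (Ndufs3, limma adjusted p 0.0449, where 0.883% of probe sets were called lower). The others were the prior that follows signal (2) and that prior with the array set as a block (10, or 5 with trimmed-mean scaling, 75th percentiles or cyclic loess). Refits within each array set also called 0 of the 35, but they called 0% of all probe sets, so they cannot show whether the lack of calls holds. No scaling called 0.0322% of all probe sets, so its lack of calls says little. With the replicate block 0 genes were called, the lowest limma adjusted p being 0.522, and no call changed. Over all probe sets 0.461% were called with that block against 1.14% without it, and 0 of the 14 arrays correlated best with their own number. Genes whose groups do not overlap numbered 0 with array medians, 75th percentiles, cyclic loess, cardiomyocyte markers or no scaling. They numbered 3 without the 3 dimmest arrays and 7 without set A, where 1.12% and 1.75% of all probe sets were apart with diabetic hearts lower. With each array left out they numbered 1 to 4. There were 2 without diabetic replicate 1 and 4 without diabetic replicate 6, where 0.651% and 0.757% of all probe sets were apart in that direction. Genes with a lower diabetic mean then numbered 30 to 32, and the median change ran from -0.13 to -0.09 (cycle -0.13 to -0.06, complex II -0.11 to -0.08, complex I -0.22 to -0.16, complex III -0.10 to -0.07). The cycle's median was -0.06 with array medians or cyclic loess and -0.14 within set B, complex II's -0.03 within set B, and that of all 35 genes -0.15 within set C. With cardiomyocyte markers subtracted the medians were -0.04 for all 35, -0.01 for the cycle, -0.01 for complex II, -0.10 for complex I and -0.03 for complex III. With no scaling, 12 genes had a lower diabetic mean, and the medians were 0.05 for all 35, 0.07 for the cycle, 0.08 for complex II, -0.01 for complex I and 0.06 for complex III. The cause of these moves was not tested.

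The mean change of single genes, none of them called, turned sign in these settings: with no scaling Idh2 0.07, Idh3a 0.03, Idh3g 0.12, Ogdh 0.07, Mdh1 0.04, Mdh2 0.11, Sdha 0.12, Sdhb 0.06, Sdhc 0.09, Sdhd 0.06, Ndufa4 0.10, Ndufa9 0.03, Ndufb5 0.07, Ndufb9 0.05, Ndufs1 0.16, Ndufv1 0.04, Uqcrc1 0.06, Uqcrc2 0.10, Uqcrfs1 0.05, Cyc1 0.01; with cardiomyocyte markers Idh3g 0.04, Mdh2 0.03, Sdha 0.03, Sdhc 0, Ndufa4 0.02, Ndufs1 0.07, Uqcrc2 0.01. Within set A it turned for Cs -0.01, Idh2 0.01, Suclg1 -0.01, Ndufa4 0.09, Ndufs1 0.02, Uqcrfs1 0.01, within set B for Ogdh 0.04, Mdh2 0.03, Sdha 0.03, Sdhc 0.06, Ndufa4 0.03 and within set C for Sdha 0.02, and without set A for Sdha 0.02. Ndufs1 turned to 0.01 with trimmed-mean scaling, 0.03 with array medians and 0.02 with cyclic loess. Array weights gave Sdha 0, Ndufa4 0, and the 3 dimmest arrays left out gave Suclg1 0, Sdha 0.01, Ndufa4 0.01. Cs was -0.06 as the mean of its probe sets and -0.34 on the one with the largest SD. With each array left out, Idh3a ran from -0.23 to 0.03, Sdha from -0.06 to 0.02, Ndufa4 from -0.06 to 0 and Uqcrc2 from -0.07 to 0.03.

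Signal was low for the second probe sets of Sucla2 and Ndufa9, for 1 of Cs and for Pc (percentiles 32.1, 70.8, 58.0 and 63.1), where the added 50 draws changes towards 0. Small shifts of bright genes depend on how arrays are scaled, and the sets of arrays were drawn from control probe sets because the labels give none.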

Other observations

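The listed genes without a probe set of their own were read from probe sets they share with near-identical copies, and none of these passed the main test. Cycs, which encodes cytochrome c, shares 2 probe sets with Cycsl1 and a pseudogene, and these had changes of -0.07 ± 0.08 and -0.17 ± 0.09 (adjusted p of limma 0.873 and 0.584). In the combined fit with the array set and the prior that follows signal, these values were 0.329 and 0.0153. The second probe set was thus called lower there, where 2.19% of all probe sets were. Uqcrb, a small subunit of complex III, shares one with Uqcrbl1, at -0.01 ± 0.08. Ndufa10, an accessory subunit of complex I, shares one with Ndufa10l1, at -0.05 ± 0.19. The array cannot separate these copies.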
